A study of Mus musculus with 19 samples.

Results

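RNA of 10 genes of fatty acid uptake and lipid droplets was followed in mouse hepatocytes of 3 populations: Lpl, Cd36, Fabp1, Fabp2, Fabp4, Fabp5, Plin2, Plin4, Cidea and Cidec. The genes were chosen by function, and their rows were taken by symbol from the 35274 genes listed. GREEN samples were hepatocytes labelled as DR-derived, an abbreviation that the labels do not spell out, from chronically injured liver. RED samples were native tdTomato hepatocytes from chronically injured liver, and CTL samples were native hepatocytes from healthy liver. All 3 groups, the healthy one included, carried OPN-CreERT2;Rosa26R-mT/mG, a tamoxifen-inducible Cre driven by the osteopontin promoter together with a reporter that switches from red to green membrane fluorescence after recombination. The sources used here do not state the kind of injury or the age and sex of the animals.

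Each group had 5 samples that the series describes as biological replicates. RNA was sequenced in 2 experiments from 150 ng of total RNA. Experiment 1 used a stranded poly(A) kit and gave GREEN 4 and 5, RED 1 and 5, and CTL 3 and 4. Experiment 2 used a kit that depletes ribosomal RNA and gave GREEN 1, 2 and 3, RED 2, 3 and 4, and CTL 1, 2 and 5. RED 2, RED 3, RED 4 and CTL 5 had a library in both, and the experiment 2 library was used. Estimated counts per library summed to between 22442607 and 34216824 in experiment 1 and to between 38061859 and 44177627 in experiment 2. Levels are given as CPM, counts per 1000000 counts of the library, after TMM scaling, a correction for differences in RNA composition.

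Some libraries stood apart. The summed CPM of 10 hepatocyte markers was 35200 to 44000 in GREEN 3, 4 and 5, and 67200 and 85000 in GREEN 1 and 2, against 85600 to 123000 in RED and 114000 to 173000 in CTL. The 10 biliary markers summed to 2930 to 8120 CPM in GREEN 3, 4 and 5, and to 498 and 709 CPM in GREEN 1 and 2, against 71.0 to 420 CPM in RED and 8.66 to 294 CPM in CTL. GREEN 3 and GREEN 4 carry different numbers in their titles but the same code in their descriptions, so they may not be independent. Summed RNA of 4 Y-linked genes was above 100 CPM in 7 samples (GREEN 3 and 4, RED 4 and 5, CTL 1, 4 and 5) and below 20 CPM in the other 8, so the groups mix both kinds.

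Fatty acids reach a hepatocyte from circulating triglyceride, which lipoprotein lipase splits at the vessel wall, and as free fatty acids, which membrane proteins such as CD36 help to take up. Inside the cell, fatty acid binding proteins carry them. Surplus is stored as triglyceride in droplets coated by perilipins, and CIDE proteins enlarge those droplets by moving lipid between them. In adult mouse liver Fabp1 is the abundant binding protein and Plin2 the main droplet coat. In GRCm38, by GENCODE M21, Lpl lies on chromosome 8 (68880491 to 68907448, plus strand), Cd36 on chromosome 5 (17781690 to 17888801, minus strand) and Fabp1 on chromosome 6 (71199827 to 71205023, plus strand). Fabp4 (10204088 to 10208576, minus strand) and Fabp5 (10012548 to 10016607, plus strand) both lie on chromosome 3. Many of the other genes are better known from adipose tissue, muscle, endothelium or macrophages, and several are classical targets of the PPAR nuclear receptors.

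Promoter stretches are shown for Fabp1, Cd36 and Plin2 because these 3 genes hold a nuclear receptor motif in the 250 bases before their RefSeq start site. RefSeq promoter windows (GRCm38.p6, 250 bases before to 50 after the start) were matched for 6 genes, and those of Fabp2, Plin4 and Cidec held neither of the 2 nuclear receptor motifs searched. Capitals mark the match, read 5′ to 3′ on the strand of the gene.
Fabp1, chr6:71199779-71199826, plus strand: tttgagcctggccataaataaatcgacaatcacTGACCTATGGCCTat
Cd36, chr5:17836097-17836146, minus strand: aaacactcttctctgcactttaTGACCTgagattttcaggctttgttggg
Plin2, chr4:86670260-86670309, minus strand: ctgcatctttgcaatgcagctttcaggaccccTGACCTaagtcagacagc

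The Fabp1 stretch held a direct repeat spaced by 1 base, searched on both strands as AGGNCANAGGNCA, the form that PPAR and RXR bind as a pair. It lay on the strand opposite the gene, 67 to 55 bases before the start. This repeat was found in 0.381% of all 32851 promoter windows. AGGTCA, a stricter form of the repeat's unit AGGNCA, was found on either strand in 16.3% of windows. It lay 228 bases before the Cd36 start, 218 before the Plin2 start, and at 67 and 9 bases before the Fabp1 start, the first of these inside the repeat. A TATA box was searched on both strands as TATAAA and found in 13.6% of windows. It lay 30 bases before the Fabp1 start and in no window of the other 5 genes. No GENCODE exon of these genes overlapped the 3 stretches; the Cd36 stretch lay within the GENCODE gene record, between exons. A match is a description of the letters only.

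Per kilobase of the principal transcript, Fabp1 was the highest of the 10 genes and Plin2 the next in each group. Fabp1 averaged 1480 CPM per kilobase in GREEN, 2920 in RED and 4900 in CTL, with SDs of 288 in GREEN, 1730 in RED and 3040 in CTL (n = 5 each). Plin2 averaged 100 CPM per kilobase in GREEN (SD 19.5), 164 in RED (SD 58.8) and 149 in CTL (SD 25.1). The order below them differed between groups: Lpl was the third gene in GREEN at 40.9 CPM per kilobase (SD 10.3), the fifth in RED at 34.3 (SD 7.36) and the sixth in CTL at 2.55 (SD 1.43). In RED, Fabp2, Cd36 and Lpl at 35.6, 35.0 and 34.3 did not differ beyond their spread, with SDs of 34.0, 11.3 and 7.36. In GREEN, Fabp5 at 23.0, Cd36 at 20.1 and Fabp2 at 17.1 were likewise within their spread. With the union of all exons as length, Lpl was the fifth in GREEN and the seventh in CTL, so its place depends on the transcript assumed. Cidec, Plin4 and Cidea were under 1.2 CPM per kilobase in all groups.

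**Figure D1:**
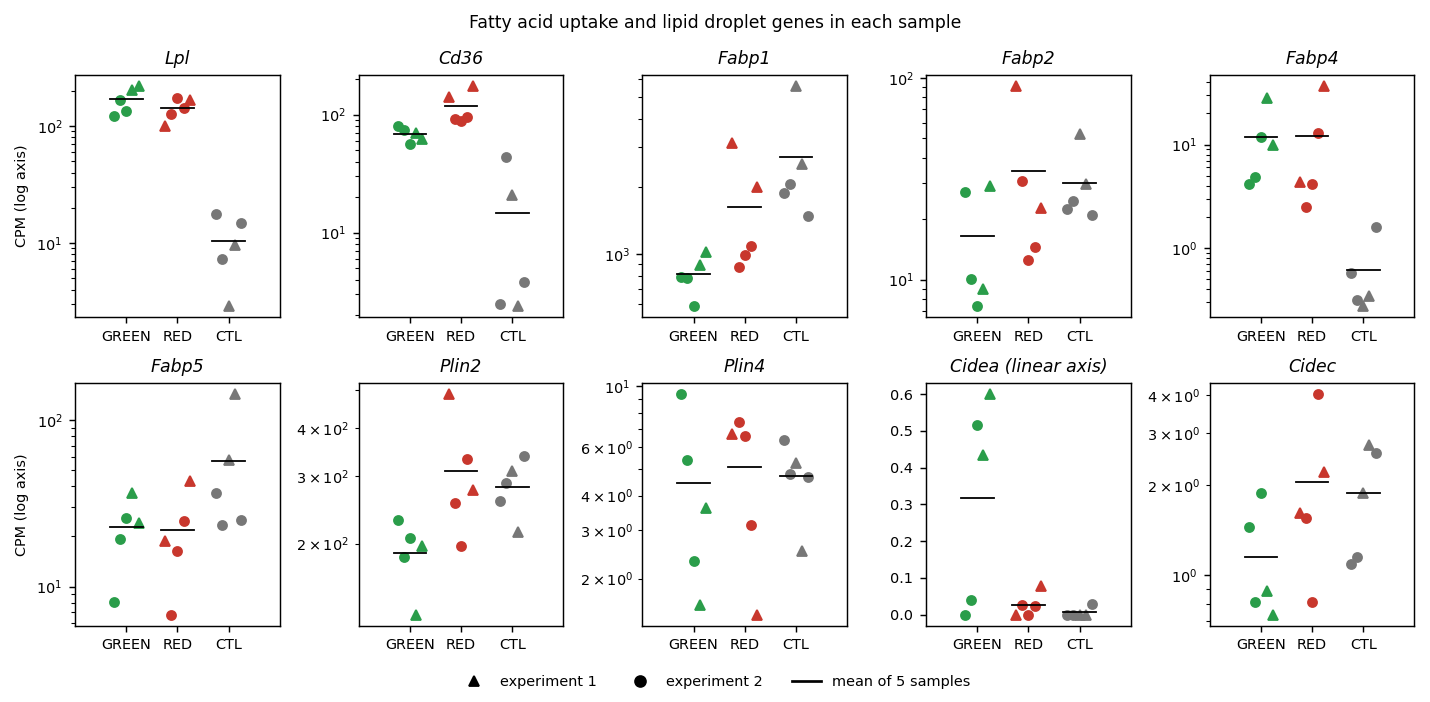
Level of each gene in each sample, in CPM on a log axis (Cidea on a linear axis), for GREEN, RED and CTL; triangles are experiment 1, circles experiment 2 and the line is the mean of 5 samples. Lpl, Cd36 and Fabp4 lie higher in every GREEN and RED sample than in any CTL sample.

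The question between RED and CTL is how native hepatocytes of injured liver differ from those of healthy liver. Of the 10 genes, 9 passed the filter on low counts, and Cidea did not. Lpl, Cd36 and Fabp4 rose in RED by edgeR's quasi-likelihood test with Benjamini-Hochberg adjustment over 16387 genes, none of the 9 fell, and 6 did not pass. Of all genes tested, 16.2% were called: 14.2% higher and 1.99% lower. The median log2 fold change of the 9 genes was 0.11, against 0.05 over all genes.

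The question between GREEN and CTL is how DR-derived hepatocytes differ from healthy native ones. Lpl, Cd36 and Fabp4 rose in GREEN, Fabp1 and Fabp5 fell, and 4 genes did not pass. Of all genes tested, 48.1% were called in this comparison, 29.5% higher and 18.6% lower, so 5 of 9 is near the background. The median log2 fold change of the 9 genes was -0.57, against 0.11 over all genes. The scaling matters here. With library totals in place of TMM the median of all genes was 0.83 and the calls were 10077 higher and 467 lower, against 4839 and 3051 with TMM. RED versus CTL shares its CTL samples with GREEN versus CTL, and the 2 comparisons are given side by side for that reason.

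GREEN versus RED compares DR-derived with native hepatocytes of injured liver. None of the 9 genes passed, and none passed under 0.05 with limma-voom or DESeq2 in the upward direction; downward, DESeq2 called Fabp1 and Plin2, and limma-voom called Fabp1. Of all genes tested, 12.9% were called by edgeR, 9.68% higher and 3.22% lower. Unadjusted p-values were under 0.05 for 2 of the 9 genes, Fabp1 and Plin2, both lower in GREEN. Over all genes 31.3% had an unadjusted p under 0.05, 13.6% lower in GREEN, so 2 of 9 is near the background. The median log2 fold change was -0.70 for the 9 genes and -0.02 for all genes. Each gene's spread was estimated over all groups, CTL included, so p-values here do not measure the spread of GREEN and RED alone. They also treat all GREEN samples as independent, although a code is shared within GREEN. Each GREEN sample also shares a code with a RED sample, and the fit did not pair them. In bulk RNA, fewer cells of a type and less RNA per cell cannot be told apart.

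**Figure D2:**
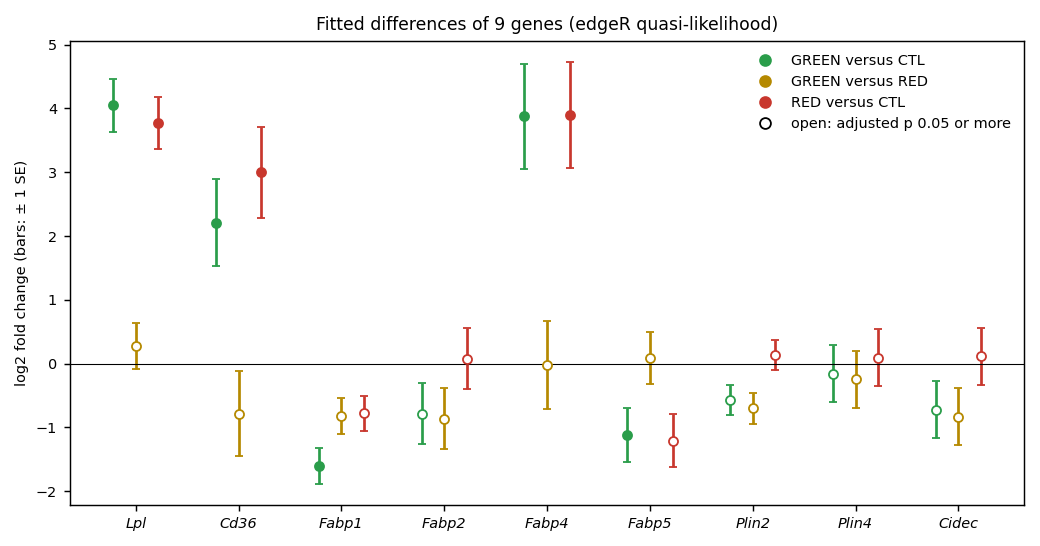
Fitted log2 fold change of 9 genes in GREEN versus CTL, GREEN versus RED and RED versus CTL; bars are 1 SE and open points have an adjusted p of 0.05 or more. Lpl, Cd36 and Fabp4 are filled and above 0 in both comparisons with CTL, and no point is filled for GREEN versus RED.

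Lpl encodes lipoprotein lipase, which releases fatty acids from circulating triglyceride and is low in healthy adult hepatocytes. It had 121.8, 165.1, 133.6, 200.4 and 220.8 CPM in GREEN 1 to 5, 99.25, 126.2, 174.6, 140.7 and 165.4 CPM in RED 1 to 5, and 17.75, 7.342, 2.913, 9.691 and 14.76 CPM in CTL 1 to 5. GREEN and RED overlapped, and each lay wholly above CTL. Genes without overlap upward made up 21% of all genes tested between GREEN and CTL and 10.6% between RED and CTL; downward they made up 9.59% and 1.42%. The log2 fold change was 3.77 in RED versus CTL (SE 0.40, edgeR adjusted p = 0.000205) and 4.05 in GREEN versus CTL (SE 0.41, edgeR adjusted p = 1.55e-05). Between GREEN and RED it was 0.27 (SE 0.36, edgeR adjusted p = 0.642). Lpl kept both calls in all 30 alternatives run for each comparison with CTL.

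Cd36 encodes a fatty acid translocase and scavenger receptor of the cell surface. In GREEN 1 to 5 it had 79.69, 74.48, 55.86, 69.48 and 61.95 CPM, in RED 1 to 5 140.7, 92.73, 88.71, 95.72 and 176.5 CPM, and in CTL 1 to 5 2.469, 43.61, 20.94, 2.394 and 3.837 CPM. Every GREEN and every RED sample was above the highest CTL sample. CTL itself was split, with CTL 2 and CTL 3 far above the other 3. The log2 fold change was 3.00 in RED versus CTL (SE 0.72, edgeR adjusted p = 0.00912) and 2.21 in GREEN versus CTL (SE 0.69, edgeR adjusted p = 0.0168). In experiment 2 alone neither passed, with 2.48 (edgeR adjusted p = 0.168) for RED and 2.07 (edgeR adjusted p = 0.14) for GREEN. The GREEN call was also lost without GREEN 4 and 5 (2.22, edgeR adjusted p = 0.0706) and without GREEN 3, 4 and 5 (2.41, edgeR adjusted p = 0.12).

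Each GREEN sample also had less Cd36 than each RED sample, a complete separation found downward for 2.25% and upward for 6.66% of all genes. The fit did not call it: the log2 fold change was -0.79 (SE 0.66, edgeR adjusted p = 0.447). That fit estimates the spread over all groups, the split CTL samples included. With only GREEN and RED fitted, the log2 fold change was -0.78 (SE 0.21, edgeR adjusted p = 0.0532), also not called. Scaled by library totals, GREEN had 75.56 to 103.0 CPM and RED 93.85 to 173.4 CPM, and the groups overlapped. The separation therefore depends on the scaling.

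The 2 CTL samples with high Cd36 were the 2 with low Y-linked RNA. CTL 2 and 3 had 43.61 and 20.94 CPM, while CTL 1, 4 and 5, with high Y-linked RNA, had 2.394 to 3.837 CPM. In a fit with separate group effects, chosen after the data were seen, Cd36 in RED versus CTL differed by 5.52 (log2) among samples with high and by 1.73 among samples with low Y-linked RNA. The difference of 3.80 had an SE of 0.51 (edgeR adjusted p = 0.00863; 107 genes passed in all). In GREEN versus CTL the effects were 4.41 and 1.16, and the difference was 3.25 (SE 0.51, edgeR adjusted p = 0.0221; 63 genes passed). No such difference was called for Cd36 between GREEN and RED (-0.55, SE 0.50, edgeR adjusted p = 0.975). Only CTL 2 and 3 carry the low-Y control values, and they came from different experiments. With Y-linked level as a term, the Cd36 calls held: 3.33 for RED versus CTL (edgeR adjusted p = 0.00263) and 2.47 for GREEN versus CTL (edgeR adjusted p = 0.00509).

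**Figure D3:**
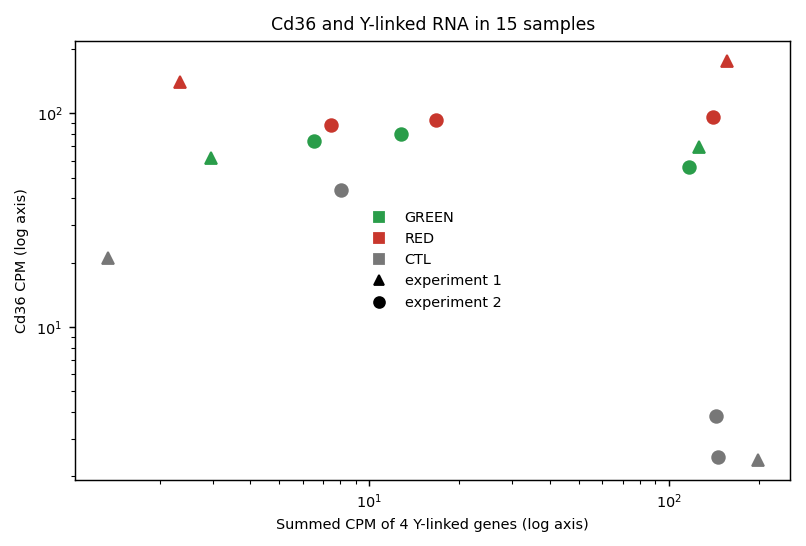
Cd36 in CPM against the summed CPM of 4 Y-linked genes, both on log axes, for the 15 samples. The 3 CTL samples with high Y-linked RNA lie at 2.394 to 3.837 CPM of Cd36, below the other 2 CTL samples and below all GREEN and RED samples.

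Fabp4, the fatty acid binding protein of adipocytes, capillary endothelium and some macrophages, was nearly absent in CTL. It had 4.156, 4.817, 11.76, 28.21 and 9.914 CPM in GREEN 1 to 5, 4.371, 2.492, 4.191, 12.90 and 37.19 CPM in RED 1 to 5, and 0.5717, 0.3135, 0.2755, 0.342 and 1.594 CPM in CTL 1 to 5. GREEN and RED overlapped over most of their range, and both lay above CTL. The log2 fold change was 3.90 in RED versus CTL (SE 0.83, edgeR adjusted p = 0.00435) and 3.88 in GREEN versus CTL (SE 0.83, edgeR adjusted p = 0.00186), against -0.02 in GREEN versus RED (SE 0.70, edgeR adjusted p = 0.985). In experiment 2 alone the RED call was lost (2.99, edgeR adjusted p = 0.0657), and without GREEN 3, 4 and 5 the GREEN call was lost (2.86, edgeR adjusted p = 0.0829).

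Markers of several other cell types rose with Lpl, Cd36 and Fabp4 in the comparisons with CTL. The endothelial list rose in 12 of 12 genes in both comparisons with CTL and had none at 0 in any library; its sum was 453 to 940 CPM in GREEN, 465 to 2400 CPM in RED and 57.0 to 174 CPM in CTL. All 11 Kupffer and macrophage markers rose in RED and 10 of 11 in GREEN, with sums of 150 to 568 CPM in GREEN, 124 to 1650 CPM in RED and 38.6 to 108 CPM in CTL. All 10 stellate and matrix markers rose in both, with sums of 837 to 2640 CPM in GREEN, 304 to 1680 CPM in RED and 34.1 to 76.1 CPM in CTL. Acta2 of that list was at 0 in 2 CTL libraries. The biliary list, whose sums are given above, rose in 10 of 10 genes in GREEN versus CTL and in 1 of 10 in RED versus CTL. Mesothelial markers rose in 4 of 4 genes in GREEN versus CTL and in 2 of 4 in RED versus CTL, with sums of 8.37 to 16.0 CPM in GREEN, 2.51 to 3.69 CPM in RED and 0.650 to 2.99 CPM in CTL. Neutrophil markers rose in 3 of 4 tested genes in both, with sums of 5.82 to 35.9 CPM in GREEN, 5.29 to 23.5 CPM in RED and 0.433 to 2.85 CPM in CTL. Of 2 tested lymphocyte markers 1 rose in both. The part of these cells in the change of the 3 genes was not tested.

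Sample by sample, the endothelial sum was 599, 642, 933, 940 and 453 CPM in GREEN 1 to 5 and 465, 509, 983, 1740 and 2400 CPM in RED 1 to 5. The stellate and matrix sum was 957, 837, 1400, 1860 and 2640 CPM in GREEN 1 to 5 and 366, 304, 548, 806 and 1680 CPM in RED 1 to 5. The Kupffer and macrophage sum was 150, 199, 412, 568 and 413 CPM in GREEN 1 to 5 and 634, 124, 330, 897 and 1650 CPM in RED 1 to 5. RED 5 and RED 4, the highest in Fabp4 within RED, were also the highest in all 3 sums. Within GREEN, Fabp4 was highest in GREEN 4 and GREEN 3, at 28.21 and 11.76 CPM, which had the highest endothelial sums. In the stellate and matrix and the Kupffer and macrophage sums GREEN 5 was above GREEN 3. GREEN 5 and GREEN 4, the highest in Lpl within GREEN, had the highest stellate and matrix sums, and GREEN 5 had the lowest endothelial sum. In RED the highest Lpl values were close, 174.6 CPM in RED 3 and 165.4 CPM in RED 5. Cd36 was highest within GREEN in GREEN 1 and GREEN 2, at 79.69 and 74.48 CPM. These samples had the lowest stellate and matrix sums and the lowest Kupffer and macrophage sums of GREEN. Within RED, Cd36 was highest in RED 5, at 176.5 CPM, and next in RED 1, at 140.7 CPM, which had the lowest endothelial sum.

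Adipocytes are a classical source of Fabp4, Lpl, Plin4, Cidea and Cidec, and 8 adipocyte markers were read. Lep had 0 counts in all 15 libraries, Adipoq had 3 counts in GREEN, 0 in RED and 3 in CTL, and Cfd had 1 count in GREEN, 2 in RED and 2 in CTL. Plin1 had 73 counts in GREEN, 59 in RED and 49 in CTL, and Retn had 23 in GREEN, 30 in RED and 21 in CTL. Slc2a4 had 127 counts in GREEN, 62 in RED and 23 in CTL, with a log2 fold change of 2.00 in GREEN versus CTL (edgeR adjusted p = 0.0619). The other 2, Lipe and Pde3b, fell in GREEN versus CTL (log2 fold change -0.80 and -0.67, edgeR adjusted p = 0.00253 and 0.00473). With library totals 1 of the 4 tested adipocyte markers was higher and 0 were lower in that comparison. The 8 adipocyte markers summed to 59.4 to 103 CPM in GREEN, 70.5 to 128 CPM in RED and 111 to 139 CPM in CTL, and Pde3b, which hepatocytes also express, held most of that.

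**Figure D4:**
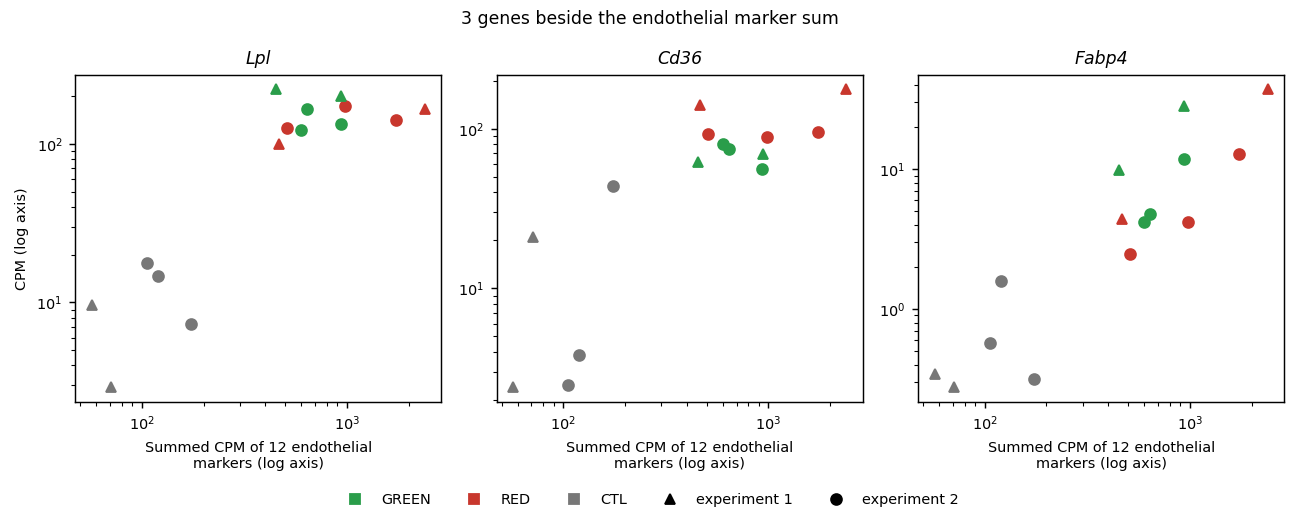
Lpl, Cd36 and Fabp4 in CPM against the summed CPM of 12 endothelial markers, all on log axes, for the 15 samples. CTL samples lie at 57.0 to 174 CPM of endothelial RNA, and GREEN and RED samples at 453 to 2400 CPM.

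Fabp1, the liver-type fatty acid binding protein, had 793.4, 786.7, 588.1, 890.9 and 1022 CPM in GREEN 1 to 5, 3133, 876.9, 986.1, 1083 and 1999 CPM in RED 1 to 5, and 1869, 2050, 5632, 2511 and 1481 CPM in CTL 1 to 5. All GREEN samples lay below all CTL samples, as in 9.59% of genes, while RED overlapped both. GREEN versus CTL gave a log2 fold change of -1.60 (SE 0.28, edgeR adjusted p = 0.000533), called in all 30 alternatives and -0.94 with library totals (edgeR adjusted p = 0.00458). RED lay between the other groups: -0.78 against CTL (SE 0.28, edgeR adjusted p = 0.0739), and GREEN lay -0.82 against RED (SE 0.28, edgeR adjusted p = 0.0661). Both missed the threshold, and both passed with DESeq2 (adjusted p = 0.00672 and 0.00789). The hepatocyte marker list moved with Fabp1: 8 of its 10 genes fell in GREEN versus CTL, 3 of 10 with library totals, and its part was not tested.

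Fabp1 differed strongly between the kits. In the 4 samples with both libraries, the experiment 2 library held 0.379 to 0.417 of the experiment 1 level. Fabp2 held 0.427 to 0.505 and Fabp5 0.463 to 0.675, whereas Plin4 held 1.48 to 2.06 times its experiment 1 level. Cd36 held 0.688 to 0.851, Fabp4 0.695 to 0.81 and Plin2 0.778 to 0.965 of their experiment 1 levels. Lpl held 0.931 to 1.40 times its experiment 1 level. These ratios come from the same samples. The 2 highest Fabp1 levels of each group (GREEN 4 and 5, RED 1 and 5, CTL 3 and 4) all came from experiment 1. Experiment was a term in the fit. Fitted by experiment, Lpl in GREEN versus CTL had a log2 fold change of 3.40 in experiment 2 and 5.07 in experiment 1 (edgeR interaction, adjusted p = 0.338). Fabp4 in RED versus CTL had 2.99 in experiment 2 and 6.07 in experiment 1 (edgeR interaction, adjusted p = 1). This interaction test called at most 1 gene of all those tested in any comparison, so it does not show that the effects were alike in both experiments.

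**Figure D5:**
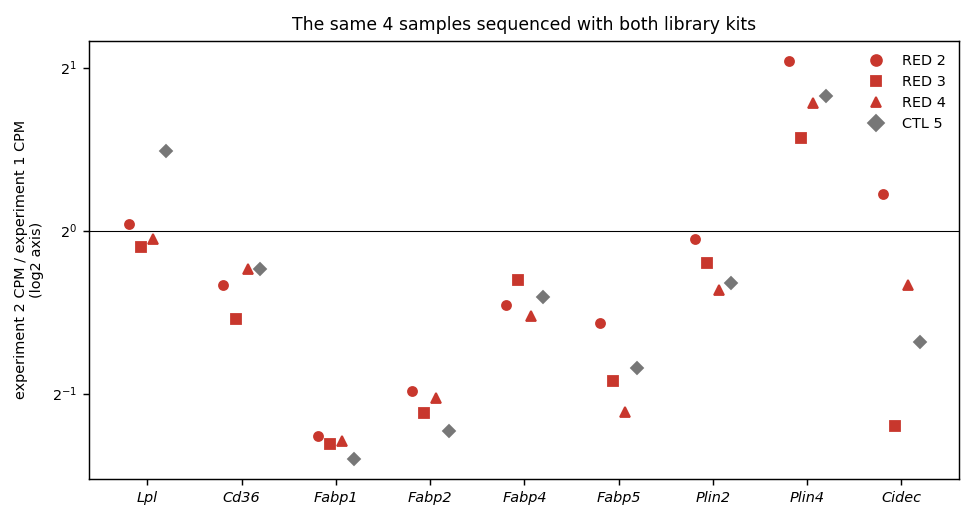
Ratio of the experiment 2 to the experiment 1 level of 9 genes, on a log2 axis, in RED 2, RED 3, RED 4 and CTL 5, which were sequenced with both kits. Fabp1 lies at 0.379 to 0.417 in all 4 samples and Plin4 at 1.48 to 2.06.

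Fabp5, the epidermal-type binding protein, had 8.023, 19.27, 25.95, 36.31 and 24.19 CPM in GREEN 1 to 5, 18.76, 6.776, 16.41, 24.65 and 42.83 CPM in RED 1 to 5, and 36.64, 23.52, 57.63, 143.0 and 25.15 CPM in CTL 1 to 5. The groups overlapped. The fall in GREEN versus CTL passed (log2 fold change -1.12, SE 0.42, edgeR adjusted p = 0.0394) but was among the least stable. It was -0.34 with library totals (edgeR adjusted p = 0.482) and -0.81 without CTL 4, which held 143.0 CPM (edgeR adjusted p = 0.108). Leaving out GREEN 1, GREEN 4 or GREEN 5 also ended the call (edgeR adjusted p = 0.0727, 0.0809 and 0.112). RED versus CTL gave -1.21 (SE 0.42, edgeR adjusted p = 0.0667). A near-identical pseudogene, Fabp5l2, held 11 counts over the 15 libraries beside 16284 for Fabp5, and shared reads may have been split between them.

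Fabp2, known from the intestine, overlapped between all groups: 7.40 to 29.0 CPM in GREEN (median 10.1), 12.5 to 91.5 CPM in RED (median 22.5) and 20.9 to 52.7 CPM in CTL (median 24.5). Its log2 fold changes were -0.78 in GREEN versus CTL, -0.86 in GREEN versus RED and 0.08 in RED versus CTL (edgeR adjusted p = 0.19, 0.237 and 0.944). RED 1 alone held 91.5 CPM. Without RED 1 the last value was -0.52.

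Plin2 coats hepatocyte droplets and, at the protein level, is known to be stabilised by them. It had 229.9, 184.1, 206.4, 130.8 and 196.7 CPM in GREEN 1 to 5, 488.6, 255.1, 196.7, 331.9 and 275.2 CPM in RED 1 to 5, and 257.8, 288.3, 308.3, 214.1 and 337.3 CPM in CTL 1 to 5. GREEN tended to the low end and overlapped both other groups. The log2 fold change was -0.57 in GREEN versus CTL (SE 0.23, edgeR adjusted p = 0.0582), -0.70 in GREEN versus RED (SE 0.24, edgeR adjusted p = 0.0628) and 0.14 in RED versus CTL (SE 0.23, edgeR adjusted p = 0.777). The GREEN versus CTL fall passed in 12 of the 30 alternatives, DESeq2 among them (-0.62, DESeq2 adjusted p = 0.0198). With library totals the GREEN versus CTL value was 0.12, the opposite sign, where the median of all genes was 0.83.

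Plin4, a perilipin of adipose tissue and muscle, ranged from 1.60 to 9.35 CPM in GREEN (median 3.62), 1.48 to 7.42 CPM in RED (median 6.61) and 2.51 to 6.37 CPM in CTL (median 4.78). The 3 log2 fold changes lay between -0.25 and 0.09, and none passed. Cidec, which promotes fusion of droplets and is a known PPAR gamma target in steatotic mouse liver, had 0.738 to 1.88 CPM in GREEN (median 0.887), 0.814 to 4.04 CPM in RED (median 1.61) and 1.09 to 2.74 CPM in CTL (median 1.89). Its log2 fold change was -0.83 in GREEN versus RED (SE 0.44, edgeR adjusted p = 0.216), -0.72 in GREEN versus CTL (SE 0.45, edgeR adjusted p = 0.205) and 0.11 in RED versus CTL (SE 0.44, edgeR adjusted p = 0.91). Cidec had 289 counts in GREEN, 358 in RED and 269 in CTL over 5 libraries each.

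Cidea, a droplet fusion protein of brown fat, was detected almost entirely in 3 GREEN samples. It had 0, 2, 28, 22 and 26 counts in GREEN 1 to 5, 0, 1, 0, 1 and 2 counts in RED 1 to 5, and 1 count in CTL 5 with 0 in the other CTL samples. At its highest, in GREEN 5, it reached 0.600 CPM. Summed over libraries, the CPM ratio was 13.6 for GREEN over RED (exact binomial 95% interval 5.11 to 51.2) and 48.8 for GREEN over CTL (8.50 to 1950), intervals that cover counting error only. With no filter on low counts the edgeR log2 fold change was 4.82 in GREEN versus CTL (adjusted p = 0.0082) and 3.42 in GREEN versus RED (adjusted p = 0.0629). GREEN 3, 4 and 5 were also the samples with the highest biliary and lowest hepatocyte marker sums, and the part of those cells was not tested.

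Other genes of the pathway were read from 8 lists of 85 genes, with means over 5 samples per group. With library totals in place of TMM, no gene of these lists was lower in GREEN versus RED. That scaling left 40 lower calls among all 16387 genes in GREEN versus RED and moved their median log2 fold change to 0.42, against -0.02 with TMM. Among extracellular lipases and their regulators, Gpihbp1, the endothelial protein that anchors lipoprotein lipase, averaged 17.3 CPM in GREEN (SD 12.8), 29.6 in RED (SD 28.6) and 1.20 in CTL (SD 0.305). It rose in RED versus CTL (log2 fold change 4.32, edgeR adjusted p = 0.000448) and in GREEN versus CTL (3.56, edgeR adjusted p = 0.000212). Lmf1, needed for lipase maturation, fell in both, to 24.7 CPM in GREEN and 33.6 CPM in RED, against 55.2 CPM in CTL. In that list of 10, GREEN versus CTL had 1 higher and 4 lower, RED versus CTL 1 and 1, and GREEN versus RED 0 and 2. Among the lower genes of GREEN versus CTL were Lmf1, Apoc3 and the hepatic lipase gene Lipc. Over all genes 29.5% were higher and 18.6% lower in GREEN versus CTL. The shares were 14.2% and 1.99% in RED versus CTL, and 9.68% and 3.22% in GREEN versus RED.

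Among 11 tested fatty acid transporters and lipoprotein receptors, GREEN versus CTL had 4 higher (Slc27a3, Slc27a1, Cav2, Cav1) and 4 lower (among them Slc27a5, Slc27a4 and Slc27a2), and RED versus CTL had none. The transporter Slc27a1 averaged 32.6 CPM in GREEN, 5.20 in RED and 6.78 in CTL. It and Slc27a3 were the 2 genes of the list called in GREEN versus RED, with log2 fold changes of 2.60 and 1.88 (edgeR adjusted p = 0.00129 and 0.0158). Over all genes 9.68% were higher there. In the same comparison 9 of 10 biliary, 3 of 4 mesothelial and 4 of 10 stellate and matrix markers were higher in GREEN, and their part in these rises was not tested. The liver transporters Slc27a2 and Slc27a5 averaged 440 and 390 CPM in GREEN, 786 and 719 CPM in RED, and 985 and 938 CPM in CTL. The Slc27a family thus had calls in both directions in GREEN versus CTL, where 29.5% of all genes were higher and 18.6% lower. With library totals the list had 5 higher and 1 lower, against 10077 and 467 over all 16387 genes.

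Of 16 further lipid droplet genes, 11 fell and 1 rose in GREEN versus CTL, 3 fell in GREEN versus RED, and 1 fell and 1 rose in RED versus CTL. Over all genes, 18.6% were lower and 29.5% higher in GREEN versus CTL, and 3.22% were lower in GREEN versus RED. In RED versus CTL 1.99% were lower and 14.2% higher. With library totals the GREEN versus CTL count of the list was 2 lower and 2 higher. The lower calls over all genes there were 467 with library totals and 3051 with TMM. The median log2 fold change of the list was -0.63 with TMM and 0.05 with library totals, against 0.11 and 0.83 over all genes. It thus lay below the median of all genes. A change of scaling shifts all genes of a library alike, so library totals are no independent check of this. Fitm1, which takes part in droplet formation, averaged 0.128 CPM in GREEN, 0.461 in RED and 3.53 in CTL, and fell in both comparisons with CTL (log2 fold change -4.75 and -3.04, edgeR adjusted p = 0.000496 and 0.0141). Hilpda, a hypoxia-induced inhibitor of lipolysis, was the gene that rose: 6.17 CPM in GREEN, 6.65 in RED and 1.76 in CTL. Cideb, Hsd17b13 and Mettl7a1 fell in GREEN versus RED; Cideb, the CIDE gene of healthy hepatocytes, averaged 89.8 CPM in GREEN, 164 in RED and 178 in CTL.

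Triglyceride synthesis had 6 of 9 tested genes lower in GREEN versus CTL and lipolysis 6 of 9, against 18.6% lower over all genes. With library totals 1 synthesis gene was lower and 2 were higher, and 0 lipolysis genes were lower and 1 was higher. Dgat2, the last step of triglyceride synthesis, averaged 166 CPM in GREEN, 274 in RED and 442 in CTL. Gpam fell in GREEN versus RED, as did the lipases Lipa and Mgll. Acyl-CoA synthetases had 5 of 8 lower in GREEN versus CTL (1 with library totals), and Acsm1 was called lower in all 3 comparisons with TMM. Neither synthesis nor lipolysis had a call in RED versus CTL. Of 5 tested other lipid-binding proteins, Fabp3 and Fabp7 were among those that rose and Scp2 fell in GREEN versus CTL, and Fabp7 rose in RED versus CTL (log2 fold change 2.88, edgeR adjusted p = 0.00211).

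Of 8 PPAR family genes and partners, Rxra, Ppara and Rxrg fell in GREEN versus CTL, where 18.6% of all genes were lower. None of the 8 was called in the other comparisons. With library totals 1 was higher and 0 lower in GREEN versus CTL, against 10077 and 467 over all 16387 genes. Ppara, the main PPAR of hepatocytes, averaged 49.3 CPM in GREEN (SD 39.8), 91.1 in RED (SD 52.4) and 141 in CTL (SD 27.8). Pparg, singled out after its values were seen because it is known to drive Cd36 and Cidec in fatty mouse liver, averaged 5.35 CPM in GREEN (SD 3.09), 5.88 in RED (SD 2.85) and 3.85 in CTL (SD 2.90). Its log2 fold change was 0.45 in GREEN versus CTL and 0.59 in RED versus CTL (edgeR adjusted p = 0.496 and 0.522).

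The genes whose log2 CPM over the 15 libraries, with the experiment effect removed, was most like a member's were found by Pearson correlation, as a description; the libraries share groups, depth and cell composition. For Lpl they were Notch3 (0.974), Gria3 (0.969) and Cd63 (0.968). For Cd36 they were Ntrk2 (0.953), Dmpk (0.943) and Bmper (0.942), and for Fabp4 Vopp1 (0.980), Kit (0.977) and Itpripl2 (0.975). For Fabp1 they were Psmd3 (0.979), Tmbim6 (0.974) and Slc10a1 (0.971), the last being the bile acid uptake transporter of hepatocytes. The closest gene to Fabp2 was Cyp4a32 (0.962), to Fabp5 Pim2 (0.926), to Plin2 Pxmp4 (0.890), to Plin4 Gm42669 (0.960) and to Cidec Nek6 (0.881).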

How the data were processed

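The authors deposited 2 tables of estimated counts per gene, not normalized, 1 for each experiment, holding 19 libraries of 15 samples. The submitters' processing notes name kallisto 0.43.1, which estimates transcript counts by pseudo-alignment, and build GRCm38. The labels do not name an annotation release or a method of summing transcripts. Of 35274 gene identifiers, 34845 (98.8%) matched GENCODE M21, which gave symbols and coordinates.

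From the deposited estimated counts, rounded to whole numbers, 1 library per sample was kept. Genes were filtered by edgeR's filterByExpr, scaled by TMM and tested with edgeR 4.0.16 (R 4.3.3) by quasi-likelihood F tests, with group and experiment as terms and Benjamini-Hochberg adjustment over 16387 genes at 0.05. CPM used the TMM-scaled library sizes. limma 3.58.1 (voom) and DESeq2 1.42.0 were alternatives, with other scaling, filters, blocks and samples left out. The test was checked on simulated data. Members and lists were chosen with earlier results of these data known. Named list genes are those past the threshold, at most 6 per list in each comparison by adjusted p. Pparg is an exception, named although it passed in no comparison. Promoter sequences come from RefSeq (GRCm38.p6). Some genes of the lists are not reported here.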

Additional observations from a re-analysis of the deposited data

Results flagged for a closer look

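In 6 of the 30 combinations of gene and group, 1 of 5 samples lay far from the others by Dixon's criterion. Chance alone gives about 1 in 20 where values follow a single normal distribution. The criterion was applied to untransformed CPM of groups that mix both kits, so 6 of 30 cannot be read as an excess over chance. Fabp1 was highest in CTL 3, at 5630 CPM. Fabp2 was highest in CTL 3, at 52.8 CPM, and in RED 1, at 91.5 CPM. CTL 3 and RED 1 were experiment 1 libraries, and in samples with both libraries experiment 1 gave the higher level of Fabp1 and Fabp2. Fabp5 was highest in CTL 4, at 143 CPM, also from experiment 1. Fabp4 was highest in CTL 5, at 1.59 CPM, an experiment 2 library. Cidea in CTL 5, at 0.0295 CPM, is a single count among samples with none.

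The Cd36 effect differed between samples with high and low Y-linked RNA, by 3.80 (log2) in RED versus CTL and by 3.25 in GREEN versus CTL, both past the threshold in a test of the difference (edgeR adjusted p = 0.00863 and 0.0221). The split of the samples was made after the data were seen.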

How the results depend on the processing

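Over 834 values of the 9 tested genes under other settings, 711 kept their direction and their side of the threshold, 16 lost a call, 42 gained one and 65 changed sign; each change of sign was of a gene that was not called. The cause was not tested. Cd36 had no adjusted p in DESeq2 and is left out there. Calls of Lpl in both comparisons with CTL, and of Fabp1 in GREEN versus CTL, held throughout. Limits are the kit differences of Fabp1, Fabp2, Fabp5 and Plin4 and the smaller ones of Cd36 and Fabp4. Further limits are the low counts of Cidea and the few samples of each kit.

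The number of the 9 genes higher in RED versus CTL was 1 in experiment 2 alone, and of those lower 2 with DESeq2 and with Y-linked RNA as a term, and 1 without GREEN 4 and 5, without GREEN 3, 4 and 5, with only the 2 groups compared and with the title-number block; it was 0 to 1 with 1 sample left out. In GREEN versus RED the number lower was 2 with DESeq2, with experiment 1 libraries and with Y-linked RNA as a term, 1 with limma-voom and in experiment 1 alone, and 0 to 3 with 1 sample left out. In GREEN versus CTL the number higher was 1 without GREEN 3, 4 and 5, and the number lower was 1 with library totals, in experiment 2 alone, without GREEN 4 and 5 and without GREEN 3, 4 and 5, 4 with Y-linked RNA as a term, and 1 to 3 with 1 sample left out.

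Among log2 fold changes that changed sign, in RED versus CTL Fabp2 was -0.14 with limma-voom, -0.24 in experiment 2 alone, -0.061 without GREEN 4 and 5, -0.06 without GREEN 3, 4 and 5, -0.05 with only the 2 groups, -0.12 with the title-number block, -0.25 with Y-linked RNA as a term, and -0.52 to 0.26 with 1 sample left out. Plin2 was -0.17 in experiment 2 alone and -0.17 to 0.28 with 1 sample left out. Plin4 was -0.054 with limma-voom, -0.012 without GREEN 4 and 5, -0.008 without GREEN 3, 4 and 5, -0.006 with the title-number block, -0.33 with Y-linked RNA as a term, and -0.39 to 0.30 with 1 sample left out. Cidec was -0.20 in experiment 1 alone and -0.36 to 0.31 with 1 sample left out.

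In GREEN versus RED, Lpl was -0.071 in experiment 2 alone, -0.26 without GREEN 4 and 5 and -0.22 without GREEN 3, 4 and 5. Fabp4 was 0.45 with library totals, 0.003 with at least 1 CPM in 5 libraries, 0.32 with limma-voom and 0.32 with experiment 1 libraries, 0.42 when experiment 1 was fitted alone, 0.08 when experiment 2 was, 0.44 with the title-number block, 0.27 with Y-linked RNA as a term, 0.10 with the experiment 2 code block, and -0.54 to 0.90 with 1 sample left out. Fabp5 was -0.089 in experiment 1 alone, -0.062 without GREEN 3, 4 and 5, -0.18 with the code block, -0.096 with that block and no CTL, and -0.19 to 0.29 with 1 sample left out. Plin4 was 0.17 with library totals, 0.02 without GREEN 4 and 5, 0.39 without GREEN 3, 4 and 5, 0.15 with the code block, 0.17 with that block and no CTL, and -0.61 to 0.10 with 1 sample left out.

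In GREEN versus CTL with library totals, Plin2 was 0.12, Plin4 0.49 and Cidec 0.034. Plin4 was 0.099 in experiment 2 alone, 0.008 without GREEN 4 and 5, 0.38 without GREEN 3, 4 and 5, and -0.52 to 0.058 with 1 sample left out. The experiment differences that changed sign with library totals were those of Fabp4 (-0.091) and Fabp5 (-0.20) in GREEN versus RED, and of Fabp2 (-0.012) and Plin2 (-0.33) in GREEN versus CTL.

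Among samples that share a title number, correlations of deviations from group means were mixed, from -0.18 to 0.48, so title numbers were not taken as pairs. The labels do not say what the codes stand for. Code pairs had correlations of 0.53, 0.30 and 0.77 in experiment 2 and of 0.19 (GREEN 4 and RED 4) and -0.085 (GREEN 5 and RED 5) in experiment 1. GREEN 5 and RED 5 also differed in Y-linked RNA, with 2.97 CPM in GREEN 5 and 156 CPM in RED 5. GREEN 1 and RED 2, and GREEN 2 and RED 3, were below 20 CPM in Y-linked RNA, and GREEN 3, GREEN 4 and RED 4 above 100 CPM. The members of each of these codes thus matched. For scale, both libraries of the same sample correlated at 0.65 (RED 2), 0.50 (RED 3), 0.66 (RED 4) and 0.36 (CTL 5). Since 1 code pair was not above 0.1, codes were not taken as pairs in the results, though the other codes may mark pairs. With the code blocks none of the 9 genes was called in GREEN versus RED. With the title-number block, Lpl in RED versus CTL was 3.94 and Fabp5 there passed (-1.26, edgeR adjusted p = 0.045). In GREEN versus RED, 1799 genes were called with the title-number block, 947 with the code block, 914 with that block and no CTL, and 2780 with the experiment 2 code block, against 2114 without a block.

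Over all genes, GREEN versus RED had 4329 calls with library totals, 3822 with DESeq2, 4141 with experiment 1 libraries, 5351 when experiment 1 was fitted alone, 77 when experiment 2 was, 268 without GREEN 4 and 5, 52 without GREEN 3, 4 and 5, 1283 with only the 2 groups, 3485 with Y-linked RNA as a term, and 866 to 3515 with 1 sample left out. RED versus CTL had 1207 in experiment 2 alone against 2652. GREEN versus CTL had 3481 in experiment 2 alone, 4481 without GREEN 4 and 5 and 2176 without GREEN 3, 4 and 5, against 7890.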
